A study of Homo sapiens with 6 samples.

Results

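The genes described are 10 genes of the transforming growth factor beta (TGF-beta) pathway in U251 cells, an established human glioma line, with and without knockdown of TEAD3. They are the ligand genes TGFB1, TGFB2 and TGFB3, the receptor genes TGFBR1, TGFBR2 and TGFBR3, the signal transducer genes SMAD2 and SMAD3, and the inhibitor genes SMAD7 and SKIL. They were picked by name, with earlier results of these data known, from the 60612 gene identifiers of the count table, and all 10 were found and tested. The study sequenced polyadenylated RNA from 3 libraries labelled as normal control and 3 labelled as TEAD3 knockdown, all from U251. TEAD3 encodes a DNA-binding partner of the coactivators YAP and TAZ. Cells were transiently transfected for the knockdown. Whether a plasmid or an siRNA carried it is not clear, since the labels mention both, and the treatment of the control cells is not stated. Nothing states that the 3 libraries of a group are separate cultures, so p-values refer to the spread between these libraries only, which may be technical.

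TGF-beta ligands are secreted as latent dimers. Once released, they bind the type II receptor (TGFBR2), which recruits and phosphorylates the type I receptor (TGFBR1), and the co-receptor betaglycan (TGFBR3) helps to present the ligand. The type I receptor phosphorylates SMAD2 and SMAD3, which enter the nucleus with SMAD4 and change transcription. SMAD7 blocks the receptor and SKIL (SnoN) represses SMAD complexes, and both genes are themselves induced by the pathway. In glioma the pathway is known for its links to invasion, immune suppression and mesenchymal gene expression.

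Total counts lay between 58344026 and 64808615 per library. In control replicates 1 to 3 TEAD3 stood at 14.9, 20.3 and 21.0 CPM (counts scaled by TMM-normalised library size), against 4.70, 8.35 and 6.07 CPM for knockdown replicates 1 to 3. The groups did not overlap, and the fitted level in the knockdown was 34.0% of the control level (edgeR adjusted p = 0.0114). The TEAD3 call was lost if control replicate 3, knockdown replicate 1 or knockdown replicate 3 was left out (edgeR adjusted p of 0.0541, 0.0532 and 0.0938), with no filter on low counts (0.0639) and with a covariate for RNAs without a poly(A) tail (0.0652). The log2 fold change was -1.55, and in these fits it was -1.46, -1.37, -1.52, -1.56 and -1.43. VIM, CD44, NES and SOX2, genes of mesenchymal and stem-like glial cells, were at 4482, 648, 185 and 150 CPM on average in the controls, whereas GFAP was at 1.46 CPM and OLIG2 had no count. The 9 listed astrocytic and glioma markers summed to 5312 to 5879 CPM in the controls and 4376 to 4934 CPM in the knockdown. Most of this sum was VIM, at 3677 CPM on average in the knockdown. The 6 epithelial markers, with KRT8 at 206 and EPCAM at 0.810 CPM in the controls, summed to 325 to 422 and 332 to 348 CPM. The 6 immune markers summed to 1.02 to 1.34 and 1.04 to 1.83 CPM, with AIF1 and CD3E at 0 in all libraries, and the 5 endothelial markers to 2.39 to 3.08 and 1.97 to 3.50 CPM. The 6 neuronal and oligodendrocyte markers summed to 21.2 to 26.8 and 21.5 to 22.0 CPM, with SYT1 and SNAP25 at 17.2 and 6.35 CPM in the controls. No gene of these lists was called by edgeR. Of 7 astrocytic and glioma markers tested, 6 had a log2 fold change below 0 and 4 were lower with no overlap. Across all tested genes 10.6% were lower with no overlap, and 49.8% had a log2 fold change above 0. Among the 4 markers was GFAP, at 0.572 CPM after knockdown (log2 fold change -1.34, edgeR adjusted p = 0.143). For the epithelial marker CLDN4 the fitted knockdown level was 57.1% of control (log2 fold change -0.81), called by DESeq2 (adjusted p = 0.00464) but not by edgeR (adjusted p = 0.0903). The part of these markers in the results was not tested.

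None of the 10 genes was called, where a gene is called when its adjusted p in the quasi-likelihood test of edgeR over all 17723 genes tested is under 0.05. Across all tested genes 0.655% were called, 0.451% as higher and 0.203% as lower in the knockdown. Of the 10, 6 had a fold change above 0 and 4 below 0, with a median log2 fold change of 0.09, against -0.0012 for all tested genes. SMAD3 was the 1 member with an unadjusted p under 0.05, a limit that 15.6% of all tested genes passed. DESeq2 and limma-voom also called none (5.84% and 0.677% of genes called by these tools), with 2 members and 1 member at an unadjusted p under 0.05, where 10.6% and 16.3% of genes passed. The DESeq2 shares are over 14357 genes with an adjusted p and 29480 with an unadjusted p. The latter had no filter on low counts, so 10.6% does not compare directly with the edgeR and limma-voom shares over 17723 genes. Groups were fully separated in 3 of the 10 genes, as in 21.6% of all tested genes. They were TGFB2 and SMAD7, higher in the knockdown (11.0% of all tested genes), and SMAD3, lower (10.6%). In bulk RNA, fewer cells of a type and less RNA per cell cannot be told apart.

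**Figure D1:**
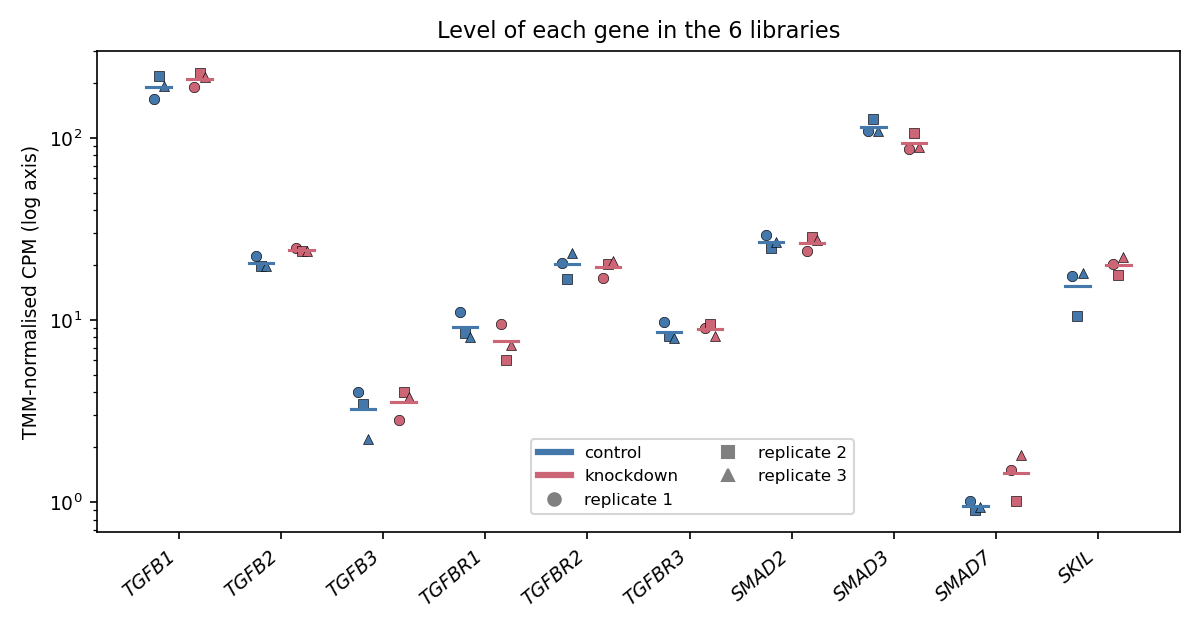
TMM-normalised counts (CPM, log axis) of the 10 genes in each library, with controls in blue, knockdown in red, replicates by symbol and group means as bars. The groups overlap for all but TGFB2, SMAD3 and SMAD7, and SMAD7 is the lowest gene in every library.

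Intervals for the size of a change reflect the spread between these libraries only, which may be technical. They were not adjusted over the 10 genes. The 95% interval of the fold change (knockdown over control) stayed within 2-fold in either direction for 9 of the 10 genes, all but SMAD7, and within 1.5-fold for 6 of them: TGFB1, TGFB2, TGFBR2, TGFBR3, SMAD2 and SMAD3. For SMAD2 the bounds were 0.824 and 1.19. SMAD7 had the widest, from 0.921 to 2.51, and was also the gene with the fewest counts, between 51 and 118 per library.

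**Figure D2:**
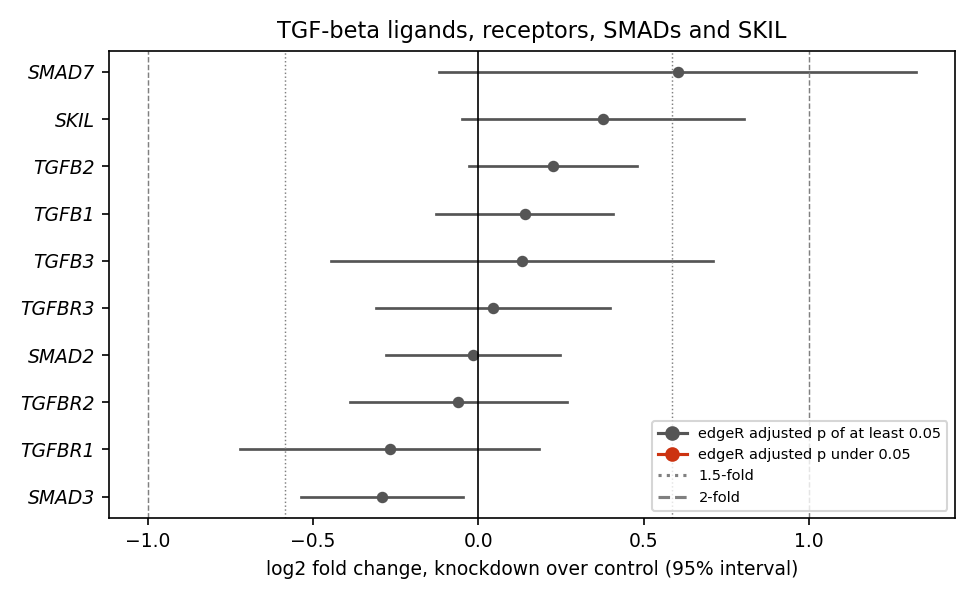
Log2 fold change, knockdown over control, with its 95% interval for each of the 10 genes, ordered by size. Dotted lines mark 1.5-fold and dashed lines 2-fold. The interval of SMAD3 alone excludes 0, and none of the genes is called after adjustment over all genes.

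The ligand genes were led by TGFB1, which encodes the most widely expressed form of the ligand. TGFB1 (ENSG00000105329) is encoded on the minus strand of chromosome 19 (GRCh38, 41301587 to 41353911). Control replicates 1 to 3 had 163, 217 and 193 CPM, and knockdown replicates 1 to 3 had 189, 228 and 215 CPM. Values of the other genes follow the same order. Control replicate 2 lay among the knockdown libraries, so the groups overlapped (log2 fold change 0.14, SE 0.122, edgeR adjusted p = 0.641). Its exons overlap those of HNRNPUL1 on the opposite strand over 6.64% of their length. Leaving out control replicate 1 or knockdown replicate 2 gave 0.04 and 0.08, and leaving out control replicate 2 or knockdown replicate 1 gave 0.24 and 0.22. If the authors' counting ignored strand, which the sources used here do not give, reads from such shared stretches could not be told apart, here and in the other genes with an overlap on the opposite strand.

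TGFB2, the ligand that depends most on betaglycan for binding, is on the plus strand of chromosome 1 (ENSG00000092969, 218346235 to 218444619). Its levels were 22.5, 19.8 and 19.7 CPM in the controls and 24.9, 23.8 and 23.7 CPM in the knockdown. Every knockdown library was above every control, by a margin of 1.26 CPM between the nearest. Mean levels were 20.6 ± 1.59 CPM without and 24.2 ± 0.685 CPM with the knockdown (SD over 3 libraries). This difference did not pass the test (log2 fold change 0.23, SE 0.116, edgeR adjusted p = 0.378). TGFB2-OT1, a transcript annotated on the same strand over 26.6% of the TGFB2 exons, was listed at 0.284 ± 0.153 and 0.299 ± 0.110 CPM, and the split of reads between them is uncertain.

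TGFB3 was the least abundant ligand gene. Its locus is on the minus strand of chromosome 14 (ENSG00000119699, 75958099 to 75982991), and levels were 4.01, 3.45 and 2.23 CPM in the controls and 2.82, 4.03 and 3.76 CPM in the knockdown. The groups overlapped throughout, with control replicate 3 the lowest library (log2 fold change 0.13, SE 0.263, edgeR adjusted p = 0.872). Exons of TGFB3 overlap TGFB3-AS1 on the opposite strand over 3.32% of their length.

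RefSeq promoter windows, which run from 250 bases before to 50 bases after an annotated start on GRCh38.p14, were searched for 2 motifs. GGAATG (read on either strand, so also CATTCC) is the core element bound by TEAD proteins, and CAGAC (or GTCTG) is the short SMAD-binding element. All 10 genes had at least 1 window, 26 in all. GGAATG was found in 2 of the 26, 1 of TGFB2 and 1 of TGFBR1, which is 7.69% of them, against 14.0% of all 35116 windows. CAGAC was found in 12 of the 26, or 46.2%, against 45.3% of all windows. Some windows of the same gene overlap, so the 26 are not separate and a match can count more than once. By gene, 6 of the 10 had CAGAC in a window and 2 had GGAATG. The TGFB2 window is shown because it holds both motifs, and that of CCN2 because CCN2 is a response gene that was called and its window holds 3 copies of GGAATG. CCN2 was picked for this after the search. Of the other called pathway genes, TGFBI had neither motif in its window and GDF11 had 1 copy of GGAATG and none of CAGAC. Motifs are in capitals, on whichever strand, and none of them overlap. A match is a run of letters, and binding was not measured here.
TGFB2 (chr1:218345086-218345385, plus strand): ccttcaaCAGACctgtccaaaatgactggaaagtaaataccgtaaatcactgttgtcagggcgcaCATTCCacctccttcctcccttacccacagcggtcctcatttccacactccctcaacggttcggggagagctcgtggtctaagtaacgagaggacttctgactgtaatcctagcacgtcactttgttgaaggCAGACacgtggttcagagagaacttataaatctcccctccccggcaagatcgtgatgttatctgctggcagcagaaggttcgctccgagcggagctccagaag
CCN2 (chr6:131951323-131951622, minus strand): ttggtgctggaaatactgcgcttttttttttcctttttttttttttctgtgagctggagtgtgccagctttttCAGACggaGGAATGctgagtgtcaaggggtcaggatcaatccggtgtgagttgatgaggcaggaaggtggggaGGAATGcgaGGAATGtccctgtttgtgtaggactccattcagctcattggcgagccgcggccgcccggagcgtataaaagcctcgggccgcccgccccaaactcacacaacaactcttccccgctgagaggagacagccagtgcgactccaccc

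The receptor genes had log2 fold changes near or below 0. TGFBR1, the kinase that phosphorylates SMAD2 and SMAD3, is on the plus strand of chromosome 9 (ENSG00000106799, 99104038 to 99154192). The controls had 11.0, 8.47 and 8.07 CPM, the knockdown libraries 9.53, 6.06 and 7.30 CPM. Knockdown replicate 1 lay between the controls and the other knockdown libraries lay below them. Its log2 fold change of -0.27 was not called (SE 0.205, edgeR adjusted p = 0.579). The value was -0.46 if knockdown replicate 1 was left out, but only -0.12 and -0.13 if control replicate 1 or knockdown replicate 2 was.

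TGFBR2, the type II receptor gene, is on the plus strand of chromosome 3 (ENSG00000163513, 30606502 to 30694142). Its levels were 20.6, 16.8 and 23.3 CPM in the controls and 17.0, 20.3 and 20.9 CPM in the knockdown, so the controls spanned the whole knockdown range. The test gave -0.06 on the log2 scale (SE 0.150, edgeR adjusted p = 0.904), and the 95% interval of the fold ran from 0.763 to 1.20. TGFBR3, which encodes betaglycan, is on the minus strand of chromosome 1 (ENSG00000069702, 91680343 to 91906335). Control levels of 9.73, 8.12 and 7.97 CPM compared with 9.02, 9.50 and 8.11 CPM after knockdown (log2 fold change 0.04, SE 0.161, edgeR adjusted p = 0.943). All knockdown libraries of TGFBR3 lay within the control range.

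SMAD3 had the smallest p of the 10 genes. It encodes the transducer that binds DNA directly and is found on the plus strand of chromosome 15 (ENSG00000166949, 67063763 to 67195195). Levels were 110, 127 and 109 CPM in the controls and 86.8, 106 and 89.3 CPM in the knockdown, so each knockdown library was below each control. The highest knockdown library, replicate 2, was 3.09 CPM below the lowest control. Mean levels were 115 ± 10.1 CPM in the 3 controls and 93.9 ± 10.2 CPM in the 3 knockdown libraries (SD). In edgeR this gave -0.29 on the log2 scale (SE 0.111), with an unadjusted p of 0.0237 and an edgeR adjusted p of 0.245. Of all tested genes, 9.65% had a smaller p. Leaving out 1 library at a time gave values from -0.38 to -0.22, and the correction for transcript length and GC content gave -0.19 (edgeR adjusted p = 0.230). Its exons overlap an antisense gene on the opposite strand over 2.00% of their length.

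SMAD2, the other transducer gene, had an interval that spanned no change. It is on the minus strand of chromosome 18 (ENSG00000175387, 47808957 to 47931146), with levels of 29.1, 24.8 and 26.8 CPM in the controls and 24.0, 28.5 and 27.3 CPM in the knockdown. Both groups covered much the same range (log2 fold change -0.02, SE 0.120, edgeR adjusted p = 0.976). The ratio of SMAD3 to SMAD2 counts within a library, which does not depend on the scaling between libraries, was 3.77, 5.10 and 4.06 in the controls and 3.62, 3.71 and 3.27 in the knockdown. All 3 knockdown libraries were below all 3 controls, a mean log2 difference of -0.28 that ranged from -0.37 to -0.15 with 1 library left out, the smallest in size without control replicate 2. The two-sided exact permutation p was 0.1, the smallest that 3 libraries against 3 can give, and 0.5 after Benjamini-Hochberg adjustment over the 5 ratios computed. The ratio was not corrected for transcript length and GC content. With that correction the log2 fold changes of SMAD2 and SMAD3 were close, at -0.15 and -0.19 (edgeR adjusted p of 0.438 and 0.230).

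The inhibitor genes SMAD7 and SKIL had the highest fold changes of the 10, and neither was called. SMAD7 is on the minus strand of chromosome 18 (ENSG00000101665, 48919853 to 48952052). Levels of 1.01, 0.899 and 0.932 CPM in the controls stood against 1.49, 1.01 and 1.81 CPM after knockdown. Knockdown replicates 1 and 3 were higher, while knockdown replicate 2 exceeded the highest control by 0.00894 CPM only. In the test SMAD7 was at 0.60 on the log2 scale (SE 0.329, edgeR adjusted p = 0.412). Knockdown replicates 1 and 3 were also the libraries with the most RN7SL1, an RNA without a poly(A) tail, at 60.8 and 79.8 CPM against 14.4 CPM in knockdown replicate 2 and 14.7, 34.5 and 17.6 CPM in the controls. With the mean log2 level of 4 such RNAs as a covariate the log2 fold change of SMAD7 was 0.31 (edgeR adjusted p = 0.878). The part of these RNAs in the SMAD7 values was not tested.

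SKIL is on the plus strand of chromosome 3 (ENSG00000136603, 170357678 to 170396835). Its levels were 17.4, 10.5 and 18.1 CPM in the controls and 20.2, 17.6 and 22.1 CPM in the knockdown. Control replicate 2 stood well below the other 5 libraries, and knockdown replicate 2 lay between controls 1 and 3. SKIL had a log2 fold change of 0.38 that was not called (SE 0.194, edgeR adjusted p = 0.383). Leaving out control replicate 2 took it to 0.17.

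The other ratios between members overlapped between groups. Log2 differences of ratios are differences between the means of the log2 ratios. The ratio of TGFB2 to TGFB1 counts was 0.110 ± 0.0248 in the controls and 0.116 ± 0.0145 in the knockdown (SD, n = 3 each, exact permutation p = 0.7, adjusted 0.875). For TGFB3 to TGFB1 the ratio was 0.0174 ± 0.00667 and 0.0167 ± 0.00155 (exact permutation p = 1.0), where the mean ratio was slightly lower in the knockdown and the mean log2 ratio slightly higher, by 0.01. TGFBR1 counts were 0.462 ± 0.101 of TGFBR2 counts in the controls and 0.402 ± 0.139 in the knockdown (exact permutation p = 0.7, adjusted 0.875). The summed counts of SMAD7 and SKIL were 0.116 ± 0.0355 of those of SMAD2 and SMAD3 in the controls and 0.180 ± 0.0360 in the knockdown (exact permutation p = 0.2, adjusted 0.5). Control replicates 1 and 3, at 0.133 and 0.140, and knockdown replicate 2, at 0.138, were nearly equal in this ratio, while control replicate 2 was at 0.0755 and knockdown replicates 1 and 3 at 0.196 and 0.205.

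Levels of different genes were compared per kilobase of annotated exon. On this scale TGFB1 led in the controls with 59.0 ± 8.49 CPM per kilobase, followed by SMAD3 with 12.6 ± 1.10. TGFBR2 (4.31 ± 0.702) and TGFB2 (4.01 ± 0.309) came next and overlapped. SKIL (1.97 ± 0.537) and TGFBR1 (1.34 ± 0.233) also overlapped each other. TGFBR3 was at 0.989 ± 0.112, above all libraries of SMAD2 (0.739 ± 0.0591), which overlapped TGFB3 (0.657 ± 0.185). SMAD7 was lowest, at 0.188 ± 0.0109. In the knockdown TGFB2 (4.69 ± 0.133) stood before TGFBR2 (4.13 ± 0.448), and the rest of the order was as in the controls. The order depends on the length used: 36366 bases of exon are annotated for SMAD2, most of them from 1 transcript of 34526 bases. With the median length of coding transcripts instead, SMAD3 was at 75.2 ± 6.58 and TGFB1 at 69.0 ± 9.93 CPM per kilobase in the controls, and in the knockdown TGFB1 was at 76.1 ± 7.12 and SMAD3 at 61.4 ± 6.69, with overlapping libraries in both groups. SMAD7 was last with either length.

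The spread among the controls was not the same for all members. Relative to the mean of control replicates 1 and 3, control replicate 2 differed by -0.75 on the log2 scale for SKIL, whose longest transcript is 33.4% GC, and by 0.29 for TGFB1, at 63.5% GC. TGFBR2 differed by -0.39, the second largest deviation in size among the 10, and SMAD3 by 0.21. Across the 10 genes, which are not independent replicates and share the same libraries, the Pearson correlation of this deviation with GC content was 0.687. SMAD7, at 58.7% GC, lay off this trend, with -0.11. With a correction for length and GC content none of the 10 genes was called, and the log2 fold changes of SKIL and TGFB1 were 0.29 and 0.10 (edgeR adjusted p of 0.250 and 0.520).

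**Figure D3:**
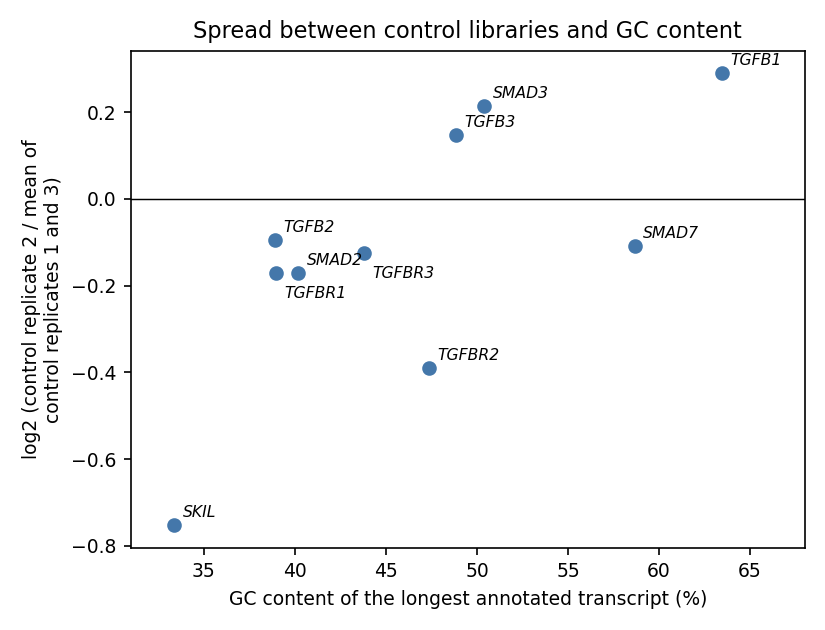
Deviation of control replicate 2 from the mean of control replicates 1 and 3 (log2 scale) against the GC content of the longest annotated transcript (%), 1 point for each of the 10 genes. SKIL is the lowest point, at -0.75, and TGFB1 the highest, at 0.29.

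Among 10357 other genes whose average log2 CPM was 3 or more, the patterns most like SMAD3 over the 6 libraries were those of PPP2R5D, GRIPAP1 and CHAF1A. Their root mean square distances from SMAD3, after centring each gene's log2 CPM, were 0.032, 0.032 and 0.036, where the median gene lay at 0.23. None of the 3 was called (edgeR adjusted p of 0.282, 0.270 and 0.200). For TGFB1, the gene with the highest level, they were SDK1, CDC42EP1 and MKNK2, at distances of 0.017, 0.027 and 0.031. These were not called either (edgeR adjusted p of 0.736, 0.734 and 0.572). Since the genes were picked for their likeness over the same 6 libraries, their test results are not separate evidence.

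In the wider pathway 110 further genes were listed by role, with earlier results of these data known, and 92 of them were tested. TGFBI and CCN2 rose, GDF11 fell, and 89 were not called, where 0.655% of all tested genes were called. The median log2 fold change over the 92 was 0.01. With no adjustment, 16 were higher and 5 lower at p under 0.05, against 8.15% and 7.43% of all tested genes. The count of called genes varied with the library left out. Leaving out control replicate 1 or 3 gave 2, and leaving out control replicate 2 gave 7. Leaving out knockdown replicate 1 or 3 gave 0, and leaving out knockdown replicate 2 gave 1. Counts over all genes, 116 as reported, moved with them: 58, 589 and 43 without control replicates 1 to 3 and 29, 73 and 20 without knockdown replicates 1 to 3. The log2 fold changes stayed between 0.73 and 0.90 for TGFBI, between 0.81 and 0.97 for CCN2 and between -0.69 and -0.58 for GDF11 with any 1 library left out. DESeq2 called 10 of them, and edgeR with the length and GC correction 7. With the covariate for RNAs without a poly(A) tail, chosen after seeing the data, edgeR called 0 of them, and 23 genes in all.

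Genes that hold the ligand latent or release it included no call. Of 16 listed, 13 were tested, 4 with a fold change above 0 and 9 below, at a median of -0.13. THBS1, which encodes the latent TGF-beta activator thrombospondin 1, was at 57.4 ± 11.3 CPM in the controls and 82.2 ± 8.01 CPM in the knockdown (SD, n = 3 each). Its groups did not overlap, but the log2 fold change of 0.52 was not called (edgeR adjusted p = 0.127, DESeq2 adjusted p = 0.0104). THBS1 is also on the list of response genes, and its exons overlap 2 genes on the opposite strand. The integrin genes ITGAV and ITGB8, whose products release the ligand from its latent complex, had log2 fold changes of -0.10 and -0.0013 (edgeR adjusted p of 0.758 and 0.998).

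Other SMADs and regulators likewise held no call among 28 tested of 29 listed, with 8 above 0 and 20 below and a median of -0.13. SMAD4, the partner shared by SMAD2 and SMAD3, was at 26.0 CPM in the control libraries and 22.6 CPM in the knockdown on average (log2 fold change -0.20, edgeR adjusted p = 0.464). SMURF1, a ubiquitin ligase gene whose product acts with SMAD7 on the receptor, was at 66.9 ± 2.52 and 53.1 ± 3.04 CPM (-0.33, edgeR adjusted p = 0.149, DESeq2 adjusted p = 0.0425). Its exons overlap TRRAP on the opposite strand over 11.7% of their length. USP15, which encodes a deubiquitinase that acts on the receptor complex, was at 49.6 ± 4.49 and 63.1 ± 5.02 CPM (0.35, edgeR adjusted p = 0.175). SKI, the paralog of SKIL, was at -0.17 on the log2 scale (edgeR adjusted p = 0.518).

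Activin and BMP receptor genes numbered 9 tested of 10, with none called and a median of 0.09. BMPR1A and BMPR1B, which encode type I BMP receptors, had log2 fold changes of -0.27 and 0.47 (edgeR adjusted p of 0.310 and 0.251). Of 25 other ligand and antagonist genes of the family, 14 were tested, and 1 was called. GDF11, which encodes a ligand that signals through SMAD2 and SMAD3 by activin receptors, was at 28.7, 33.4 and 28.9 CPM in the control libraries and 19.3, 20.5 and 18.3 CPM in the knockdown. Each knockdown library was below each control, and GDF11 fell by 0.65 on the log2 scale (SE 0.118, edgeR adjusted p = 0.0367). The call was kept without control replicate 2 (edgeR adjusted p = 0.0321) and lost when any other library was left out (0.0811 to 0.286), with no filter on low counts (0.0996), with the replicate number as a block (0.0781) and with the covariate for RNAs without a poly(A) tail (0.220). Its log2 fold change was -0.65 in each of the last 3 fits. Its exons overlap SARNP on the opposite strand over 4.46% of their length. GDF15, a stress-induced member of the family, was at 126 ± 7.44 and 182 ± 20.8 CPM (0.53, edgeR adjusted p = 0.0582, DESeq2 adjusted p = 0.000273).

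Among genes known to respond to TGF-beta, 2 rose and none fell, where 0.451% and 0.203% of all tested genes did. Apart from SMAD7 and SKIL the list held 33 genes, of which 31 were tested and 29 were not called. The fold change was above 0 for 22 and below for 9, with a median of 0.20, against -0.0012 over all tested genes. With no adjustment, 11 were higher and 1 lower at p under 0.05, against 8.15% and 7.43% of all tested genes. In 10 genes all knockdown libraries were above all controls, and in 1 all were below, against 11.0% and 10.6% of all tested genes. DESeq2 called 7 higher and none lower (3.39% and 2.46% of genes by that tool). The list was chosen with earlier results of these data known, and its difference from all genes was not tested. Genes on this list respond to other signals as well, and CCN2 is also a target of YAP and TEAD.

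TGFBI, which encodes a TGF-beta-induced matrix protein, was at 60.9, 65.3 and 76.8 CPM in the control libraries and 121, 117 and 116 CPM in the knockdown. The groups stood well apart, and the log2 fold change was 0.80 (SE 0.108, edgeR adjusted p = 0.00913). The call was lost if knockdown replicate 1 or 3 was left out (edgeR adjusted p of 0.0577 and 0.0697) and with the covariate for RNAs without a poly(A) tail (0.0587), while the log2 fold changes there were 0.79, 0.82 and 0.82. CCN2, a secreted matricellular protein gene, was at 13.9, 13.7 and 16.8 CPM in the control libraries and 26.4, 27.5 and 27.0 CPM in the knockdown (0.87, SE 0.125, edgeR adjusted p = 0.0137). Its call was lost without knockdown replicate 1, 2 or 3 (edgeR adjusted p of 0.0704, 0.0539 and 0.113) and with that covariate (0.0652), at log2 fold changes of 0.88, 0.85, 0.87 and 0.91. Exons of CCN2 overlap an antisense gene on the opposite strand over 8.34% of their length.

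ID1 and ID3, genes of helix-loop-helix inhibitors best known as BMP targets, had log2 fold changes of 0.43 and 0.33 (edgeR adjusted p of 0.102 and 0.165), and DESeq2 called both (adjusted p of 0.00466 and 0.0324). PMEPA1, a feedback inhibitor gene of the TGF-beta pathway, was at 8.24 ± 0.343 and 7.55 ± 0.869 CPM (-0.13, edgeR adjusted p = 0.775). COL1A2 and FN1, matrix genes of the list, had log2 fold changes of -0.32 and -0.14 (edgeR adjusted p of 0.202 and 0.681). The collagen genes COL1A1, COL4A1 and COL4A2 were at 0.50, 0.42 and 0.15 (edgeR adjusted p of 0.209, 0.126 and 0.711). Of these, DESeq2 called COL4A1 (adjusted p = 0.0145). Values within the list thus lay on both sides of 0.

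**Figure D4:**
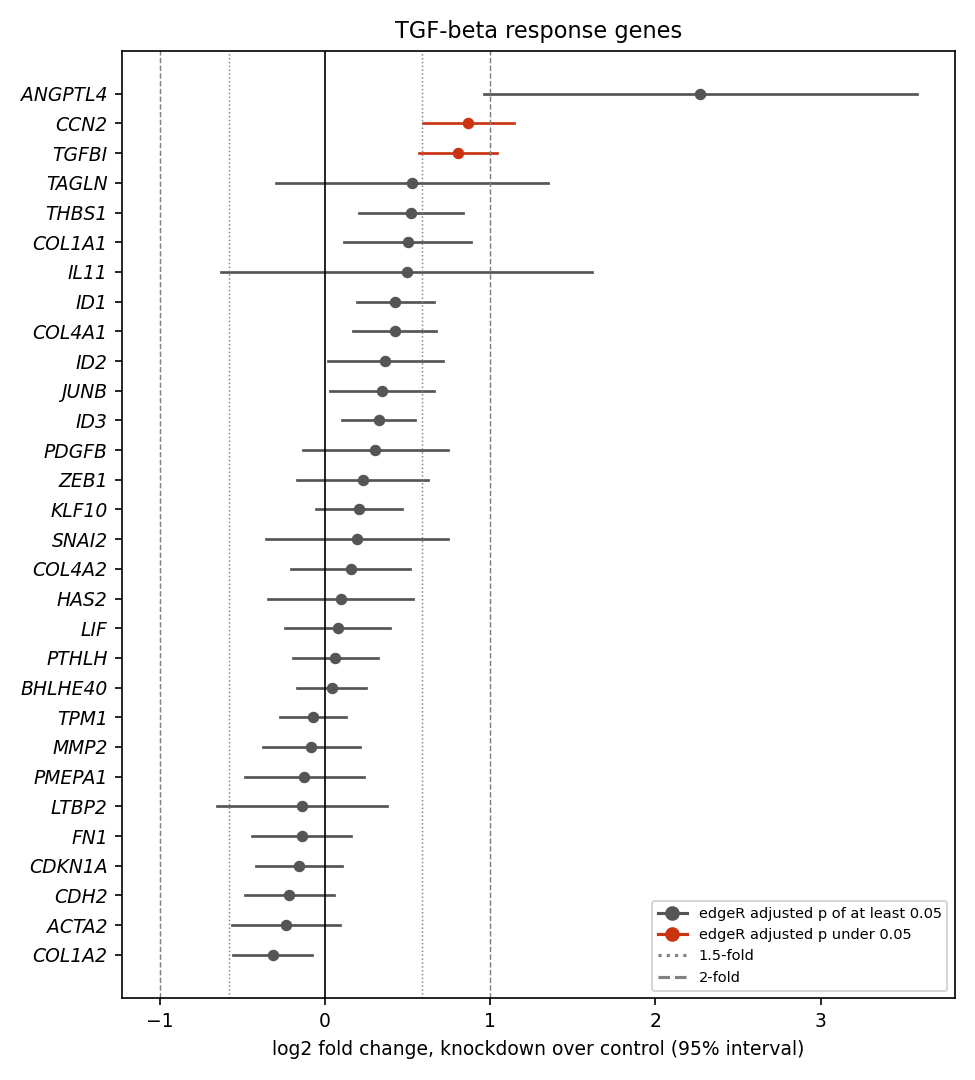
Log2 fold change, knockdown over control, with its 95% interval for 30 of the 31 tested TGF-beta response genes other than SMAD7 and SKIL. Genes in red, TGFBI and CCN2, were called by edgeR after adjustment over all genes, and the wide interval at the top is that of ANGPTL4, a gene under 1 CPM in every library.

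The fold changes of the 10 members under each alternative setting are set side by side in the plot of fold changes with a library left out. TGFB1, TGFB2, SMAD7 and SKIL were above 0, and TGFBR1 and SMAD3 below 0, in each of the 17 alternative fits. TGFB3, TGFBR2, TGFBR3 and SMAD2 crossed 0 in at least 1 of them. The smallest adjusted p of any member in any of these fits was 0.138, that of SMAD3 by DESeq2.

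**Figure D5:**
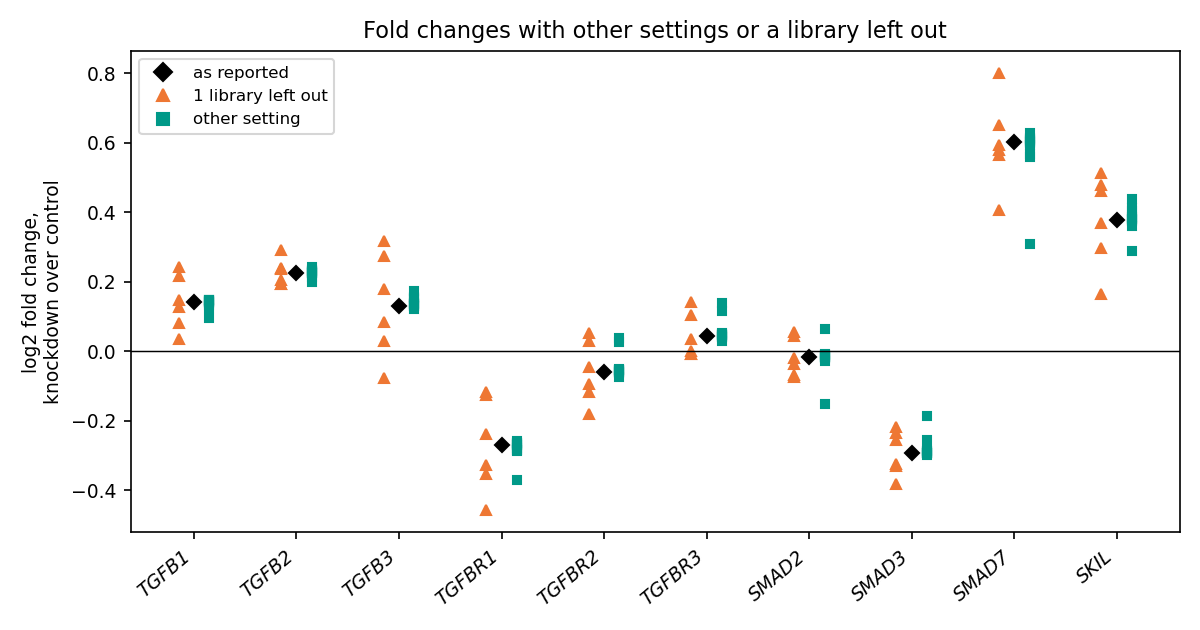
Log2 fold change, knockdown over control, of each of the 10 genes as reported (diamonds), with 1 library left out (triangles) and with another normalisation, filter, test or correction (squares). SMAD7 ranges from 0.31 to 0.80 and TGFBR1 from -0.46 to -0.12, while SMAD2, TGFBR2, TGFBR3 and TGFB3 have points on both sides of 0.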

How the data were processed

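The authors deposited whole-number counts per Ensembl gene, unscaled, 1 column per library. HISAT2 2.0.4, StringTie 1.3.4d, cutadapt 1.9, edgeR and DESeq2 are named with build GRCh38 in the submitters' notes, without their roles (per the submitters' processing notes). How counts were made, by which annotation and strand setting, is not given in the sources used here. Per the labels' protocols, libraries were strand-marked (dUTP), poly(A)-selected and read as pairs.

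Counts were tested with edgeR 4.0.16 in R 4.3.3 (quasi-likelihood F test, TMM scaling, filterByExpr with a minimum count of 10, group as the only term, two-sided, Benjamini-Hochberg adjustment over 17723 genes). SE and 95% intervals come from this fit. A floor of 3 counts is between 0.0457 and 0.0529 CPM, which covers counting error only. Ratios were tested by exact permutation. Alternatives were other scalings and filters, DESeq2 1.42.0, limma-voom (limma 3.58.1), robust dispersions, a replicate block, 1 library left out, a loess correction for length and GC content (span 0.3) and an adjusted p under 0.01. A covariate for RNAs without a poly(A) tail was added after seeing the data. The tests were checked on simulated data. Symbols matched 60588 of 60612 rows. Coordinates, lengths and overlaps are from GENCODE release 29 (GRCh38), promoters from RefSeq (GRCh38.p14).

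Members and lists were chosen with earlier results of these data known. Genes named are the 10 members, the called genes of each list, and the 3 genes nearest in pattern to SMAD3 and TGFB1. Other list genes were named after their values were seen. The values of 1 gene on the list of response genes are not reported here, although it stays in the counts.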

Additional observations from a re-analysis of the deposited data

How the results depend on the processing

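None of the 10 members was called under any alternative, and 6 kept their direction in all 17 fits. Of 170 member values in these fits, 10 changed sign, all in genes whose log2 fold change was at most 0.13 in size. With 1 library left out, TGFB3 ranged from -0.076 to 0.32 (below 0 if control replicate 3 was out) and TGFBR2 from -0.18 to 0.054 (above 0 if control replicate 3 or knockdown replicate 1 was out). In the same way TGFBR3 ranged from -0.0089 to 0.14 (below 0 if control replicate 3 or knockdown replicate 2 was out) and SMAD2 from -0.073 to 0.056 (above 0 if replicate 1 of either group was out). The length and GC correction put TGFBR2 at 0.027, and the covariate for RNAs without a poly(A) tail put TGFBR2 at 0.039 and SMAD2 at 0.063. Of the 5 ratios, 2 changed sign with a library left out: TGFB2 to TGFB1, at 0.08 on the log2 scale, ranged from -0.046 to 0.26, and TGFB3 to TGFB1, at 0.01 by mean log2 ratio, from -0.25 to 0.30.

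The other pathway genes called, 3 as reported, ranged from 0 to 7 with a library left out. There were 10 by DESeq2, 7 with the length and GC correction, 1 at an adjusted p under 0.01 and 0 with the covariate for RNAs without a poly(A) tail, and the causes were not tested. With the replicate number as a block there were 2, CCN2 and TGFBI, and no member was called. Among all genes, 116 were called as reported, 63 with the block, 20 without knockdown replicate 3, 589 without control replicate 2 and 839 by DESeq2. With the length and GC correction 598 were called, and with the covariate 23. Deviations of same-numbered libraries from their group means correlated at -0.017, -0.108 and 0.0046, and those of other pairs at -0.063 to 0.068. With 3 libraries per group, these values cannot show whether the numbers pair the libraries. No scaling moved the median of all genes by more than 0.1. SMAD7, with between 51 and 118 counts per library, had the widest interval of the 10 members.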
